A study of Mus musculus with 16 samples.

Results

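The metallothioneins of the mouse are 4 small genes, Mt1, Mt2, Mt3 and Mt4, and all 4 were found by symbol among the 19439 genes listed in at least 1 of 16 RNA-seq libraries of ear skin. The family was selected on measured values of these data: Mt4 was among the genes with a large difference between LPC and vehicle ears at day 7. The day 7 values of that comparison are therefore given as a description, with no test for any member. The skin came from BALB/c mice of 8 weeks, all of which received imiquimod on the ear, an agent that causes a psoriasis-like inflammation. The 4 groups were imiquimod with LPC at day 7, imiquimod with vehicle at day 7, imiquimod with LPC at day 4 and imiquimod with vehicle at day 4, with 4 libraries in each. LPC, which usually stands for lysophosphatidylcholine, was injected into the ear skin each day for 6 days as 10 µl at 10 mM, and the vehicle was 10 µl of saline. Ears taken at day 4 may have had fewer injections than those at day 7, so day and number of injections cannot be told apart. Skin without imiquimod was not analysed here, so no value below is relative to normal skin.

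Metallothioneins are small, cysteine-rich proteins of the cytoplasm that bind zinc and copper. Mt1 and Mt2 are made in most tissues and are transcribed when zinc, other metals, glucocorticoids or inflammatory signals rise; the zinc-sensing transcription factor MTF1 binds metal response elements in front of them. Mt3 is known mainly from the brain, and Mt4 from the differentiating layers of stratified squamous epithelia such as the epidermis. All 4 genes lie in 1 cluster on the + strand of chromosome 8 in the build GRCm38, with the non-coding gene Gm39227 between Mt3 and Mt2. Mt4 (Entrez 17752) occupies positions 94137204 to 94139031, Mt3 (17751) positions 94152607 to 94154148, Mt2 (17750) positions 94172618 to 94173567 and Mt1 (17748) positions 94178883 to 94180327.

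The start regions of the 4 genes are shown because the members split into an abundant pair and a gene that moved apart from it. Each sequence is RefSeq's for GRCm38.p6, runs 5′ to 3′ and spans 250 bases before to 50 bases after an annotated start. For Mt2, Mt3 and Mt4 that start is the gene start given above, while the Mt1 window is set on base 94179089, which lies 206 bases inside the annotated gene, so its positions rest on another kind of anchor. Capitals mark matches to the core of the metal response element, searched on both strands as TGCACNC or TGCGCNC.
Mt1 (chr8:94178839-94179138, + strand): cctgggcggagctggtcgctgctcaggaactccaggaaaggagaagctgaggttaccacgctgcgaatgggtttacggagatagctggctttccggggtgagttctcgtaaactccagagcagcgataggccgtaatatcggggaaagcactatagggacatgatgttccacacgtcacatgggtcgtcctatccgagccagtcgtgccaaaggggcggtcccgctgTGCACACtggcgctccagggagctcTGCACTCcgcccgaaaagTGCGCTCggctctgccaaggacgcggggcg
Mt2 (chr8:94172368-94172667, + strand): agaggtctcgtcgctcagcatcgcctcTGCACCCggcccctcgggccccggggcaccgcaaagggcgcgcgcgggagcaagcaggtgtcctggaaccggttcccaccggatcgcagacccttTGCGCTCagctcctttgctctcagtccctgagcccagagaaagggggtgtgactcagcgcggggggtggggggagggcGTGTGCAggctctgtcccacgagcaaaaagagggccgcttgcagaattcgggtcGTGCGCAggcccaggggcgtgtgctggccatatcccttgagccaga
Mt3 (chr8:94152357-94152656, + strand): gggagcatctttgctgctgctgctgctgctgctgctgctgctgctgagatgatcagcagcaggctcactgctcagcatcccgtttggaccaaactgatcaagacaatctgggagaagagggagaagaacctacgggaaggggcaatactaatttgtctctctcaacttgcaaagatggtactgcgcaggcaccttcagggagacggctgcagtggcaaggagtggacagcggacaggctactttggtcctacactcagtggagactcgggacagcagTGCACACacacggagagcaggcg
Mt4 (chr8:94136954-94137253, + strand): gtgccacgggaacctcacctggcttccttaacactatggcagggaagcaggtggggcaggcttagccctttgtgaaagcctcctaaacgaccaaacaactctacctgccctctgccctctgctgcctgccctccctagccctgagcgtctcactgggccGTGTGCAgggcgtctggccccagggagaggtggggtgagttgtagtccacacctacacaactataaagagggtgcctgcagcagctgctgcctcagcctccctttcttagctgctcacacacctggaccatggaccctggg
The core was matched 4 times in the Mt2 window, 3 times in Mt1, 1 time in Mt3 and 1 time in Mt4, and no 2 matches overlapped. Of 32851 mouse start regions of this length, 25.7% held at least 1 match, 1.97% at least 3 and 0.517% at least 4. With the start base counted as 0, the Mt2 matches began at -223, -128, -50 and 4, those of Mt1 at -23, 2 and 20, that of Mt3 at 27 and that of Mt4 at -91. The letters TATAAA occurred in the Mt4 window alone among the 4, at -30, and in 13.6% of all start regions. The antioxidant-type letters TGACNNNGC, searched in the same way, occurred in the Mt2 window alone among the 4, at -79, and in 12.4% of all start regions. Bases outside these windows were not searched, so a motif missing from a window may still lie near that gene. This matters most for Mt1, whose window has another kind of anchor. Its match count, its positions and its lack of TATAAA hold for that window only. Such matches describe letters only and were not measured as sites.

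Per length, the family held 2 very abundant genes, 1 gene of intermediate and variable level and 1 scarce gene. FPKM, the authors' unit, divides a gene's fragments by its transcript length and by the depth of the library. Over all 16 libraries Mt2 ran between 653 and 3317 FPKM (median 1769), Mt1 between 585 and 3136 (median 1483), Mt4 between 1.66 and 470 (median 105) and Mt3 between 1.92 and 18.9 (median 6.71). Ordered by FPKM within a library, Mt2 stood between rank 7 and rank 133 of all genes and Mt1 between rank 9 and rank 147. Mt4 ranged from rank 154 to rank 11304 and was the member with the widest range. The medians of Mt1 and Mt2 lay close together, and their ranges overlapped almost wholly. Counts behind these levels were 6406 to 34783 for Mt1, 6623 to 33994 for Mt2, 12 to 3185 for Mt4 and 19 to 188 for Mt3. The tissue label held against its markers: Krt14, the main keratin of basal keratinocytes, stood between 4153 and 10799 FPKM and Krt10, a keratin of the layers above, between 367 and 4054 FPKM.

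**Figure D1:**
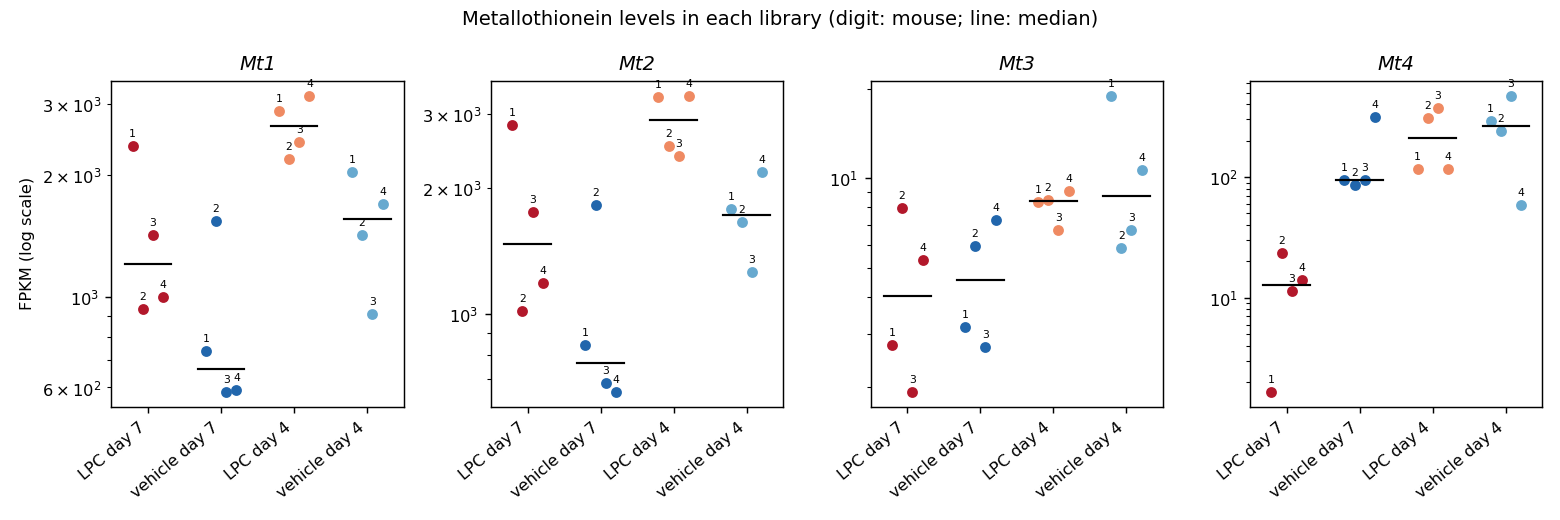
FPKM of each metallothionein gene on a log axis, 1 panel per gene, with 1 point per library (the digit is the mouse) and a line at the median of each group of 4. Mt4 stands between 1.66 and 23.6 FPKM in LPC ears at day 7, below every library of the other 3 groups.

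The libraries differed in tissue makeup beside the groups. Total counts were 18704197 to 20131513. At day 4 all 25 genes of a skeletal muscle list were lower in LPC ears, with a summed level of 254 to 2347 FPKM there and 3061 to 28739 FPKM in vehicle ears; edgeR called none, while 25 had an unadjusted p below 0.05 and DESeq2 called 24. Vehicle mouse 3 had the lowest muscle level of its group. At day 7 the muscle sum was 11606 and 13467 FPKM in LPC mice 2 and 4, against 715 and 272 FPKM in LPC mice 1 and 3, while vehicle ears lay between 1892 and 8073 FPKM. A list of 13 adipocyte genes split the same libraries, with sums of 1175 and 4322 FPKM in LPC mice 2 and 4 and of 79.7 and 225 FPKM in mice 1 and 3, against 195 to 1023 FPKM in vehicle ears. Macrophage genes, 10 in all, split these LPC libraries too, with sums of 1127 and 656 FPKM in LPC mice 2 and 4 and of 154 and 155 FPKM in mice 1 and 3, against 241 to 591 FPKM in vehicle ears. At day 4 the macrophage sums did not overlap, at 120 to 216 FPKM in LPC ears and 228 to 331 FPKM in vehicle ears. No gene of the 10 lists used was listed at 0 in a whole group.

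Mt1 and Mt2 were higher in LPC than in vehicle ears at day 4 in every library, but the difference did not pass the test over all genes. Mt1 reached 2873, 2188, 2414 and 3136 FPKM in LPC ears at day 4, against 2033, 1425, 908 and 1702 FPKM in vehicle ears. The groups did not overlap, and means were 2653 ± 430 and 1517 ± 476 FPKM (SD, n = 4 each). Mt2 reached 3297, 2517, 2378 and 3317 FPKM in LPC ears, against 1785, 1660, 1259 and 2179 FPKM in vehicle ears. These groups did not overlap either, and means were 2877 ± 499 and 1721 ± 379 FPKM. Of 15782 genes tested, 6.26% were likewise higher in all LPC libraries, and 0.139% were called at an adjusted p below 0.05. The log2 fold change was 0.83 ± 0.39 for Mt1 (standard error; edgeR's quasi-likelihood test, Benjamini-Hochberg adjusted p = 0.26). For Mt2 it was 0.77 ± 0.38 (edgeR adjusted p = 0.29). With the muscle score as a covariate these log2 fold changes were 0.43 for Mt1 and 0.27 for Mt2 (edgeR adjusted p = 0.91 and 0.95). The muscle sums of these groups did not overlap, at 254 to 2347 FPKM in LPC ears and 3061 to 28739 FPKM in vehicle ears. Muscle content and LPC therefore cannot be told apart at day 4, and nothing is read from the values with the covariate. The macrophage sums given above were lower in every LPC ear of the same comparison, and their part in the difference was not tested.

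At day 7 Mt1 and Mt2 were again higher on average in LPC ears, with overlapping groups. Mt1 stood at 2360, 935, 1421 and 1002 FPKM in LPC ears and at 739, 1542, 585 and 592 FPKM in vehicle ears. Mt2 stood at 2832, 1017, 1754 and 1189 FPKM in LPC ears and at 843, 1817, 685 and 653 FPKM in vehicle ears. For both genes, vehicle mouse 2 lay within the LPC range, and the other 3 vehicle ears lay below every LPC ear. The log2 fold changes, as a description, were 0.88 ± 0.39 for Mt1 and 0.92 ± 0.38 for Mt2. The 2 LPC ears with the higher Mt1 and Mt2, mice 1 and 3, were those with little muscle, fat and macrophage RNA. Vehicle mouse 2 had the lowest muscle level of its group, 1892 FPKM, the lowest adipocyte level, 195 FPKM, and the lowest macrophage level, 241 FPKM. Vehicle mouse 3 at day 4 went the other way. It had the lowest muscle and adipocyte levels of its group, 3061 and 493 FPKM, with the lowest Mt1 and Mt2, 908 and 1259 FPKM. Its macrophage level, 331 FPKM, was the highest of that group. The part of these tissues in the Mt1 and Mt2 levels was not tested. With LPC mice 2 and 4 left out, the log2 fold changes were 1.35 for Mt1 and 1.43 for Mt2. Without LPC mouse 1 alone they were 0.45 and 0.47, and without vehicle mouse 2 alone 1.31 and 1.37. With the muscle score as a covariate they were 0.78 and 0.79.

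Neutrophil genes moved with the pair inside the LPC group at day 7. The summed level of 11 neutrophil genes, of which 9 could be tested, was 981 and 821 FPKM in LPC mice 1 and 3 and 368 and 235 FPKM in mice 2 and 4, against 78.6 to 183 FPKM in vehicle ears. At day 7, 4 of the 9 and 2.38% of all genes rose with LPC, among them Ly6g, a surface antigen of neutrophils, with a log2 fold change of 3.17 ± 0.78 (edgeR adjusted p = 0.040), and Il1r2, a decoy receptor for interleukin-1, with 1.47 ± 0.32 (edgeR adjusted p = 0.026). At day 4 none was called by edgeR or DESeq2, and 1 had an unadjusted p below 0.05. Vehicle mouse 2 went the other way from LPC mice 1 and 3, with high Mt1 and Mt2 and a neutrophil sum of 101 FPKM. The part of neutrophils in the Mt1 and Mt2 levels was not tested.

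**Figure D2:**
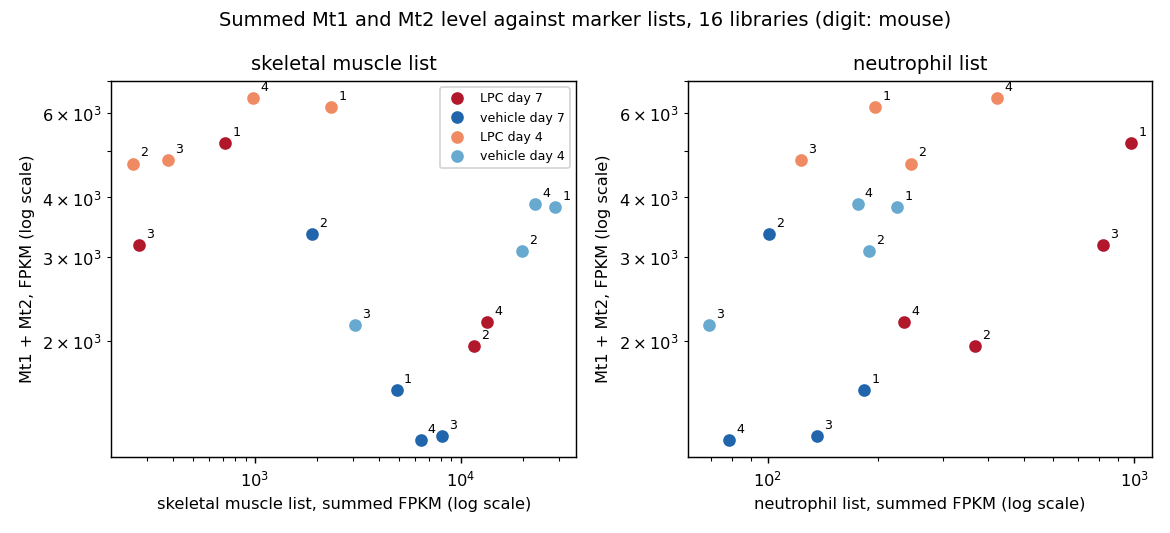
Summed Mt1 and Mt2 level against the summed level of the skeletal muscle list (left) and the neutrophil list (right), both in FPKM on log axes, with 1 point per library and the digit as the mouse. LPC mice 1 and 3 at day 7 hold low muscle levels of 715 and 272 FPKM and high neutrophil levels of 981 and 821 FPKM.

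Both genes were lower at day 7 than at day 4 with either treatment, with groups that overlapped, and neither difference passed the test. In vehicle ears the log2 change of day 7 against day 4 was -0.78 ± 0.39 for Mt1 and -0.75 ± 0.38 for Mt2 (edgeR adjusted p = 0.41 and 0.42). In LPC ears it was -0.73 ± 0.39 for Mt1 and -0.59 ± 0.38 for Mt2 (edgeR adjusted p = 0.21 and 0.30). With LPC mice 2 and 4 left out, these LPC values were -0.27 and -0.10. Without LPC mouse 1 at day 7 alone they were -1.16 and -1.05 (edgeR adjusted p = 0.053 and 0.063). In vehicle ears, leaving out 1 library gave -1.21 to -0.57 for Mt1 and -1.19 to -0.57 for Mt2, the largest changes being those without mouse 2 at day 7. edgeR called 0.0% of genes between the days in vehicle ears, where 2050 genes had an unadjusted p below 0.05 and DESeq2 called 238, and 11.0% in LPC ears. Cell type lists moved between the days as well. All 25 muscle genes were lower at day 7 in vehicle ears, none with an unadjusted p below 0.05. In LPC ears all 25 were higher, with 1 called by edgeR, 14 by DESeq2 and 23 at an unadjusted p below 0.05. All 9 neutrophil genes tested were higher in LPC ears, with 3 called by edgeR and 4 by DESeq2. Of 13 adipocyte genes 11 were higher in LPC ears, with 2 called by edgeR and 8 by DESeq2. In vehicle ears all 13 were lower. Of 13 hair follicle genes in vehicle ears, 12 had an unadjusted p below 0.05, edgeR called 0 and DESeq2 called 3, with sums of 16.1 to 126 FPKM at day 7 and 110 to 2154 FPKM at day 4. Of the 10 macrophage genes, 4 rose in LPC ears, with sums of 154 to 1127 FPKM at day 7 and 120 to 216 FPKM at day 4. The part of these cell types in the Mt1 and Mt2 levels was not tested. These comparisons share their day 7 libraries with the comparison that drew attention to the family. The effect of LPC at day 7 minus that at day 4 was 0.06 ± 0.54 for Mt1 and 0.15 ± 0.54 for Mt2 on the log2 scale.

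Mt1 and Mt2 kept nearly the same proportion in the group means, while single vehicle ears at day 4 ran from 46.8% to 58.1% Mt2. Mt2 made up 54.0% ± 1.36 of their summed FPKM in LPC ears at day 7, 53.4% ± 0.751 in vehicle ears at day 7, 52.0% ± 1.85 in LPC ears at day 4 and 53.7% ± 4.95 in vehicle ears at day 4 (SD, n = 4 each). The difference at day 4, LPC minus vehicle, was -1.71 percentage points (two-sided exact permutation test, p = 0.543; 4 against 4 can give no p below 0.0286). This result leaned on vehicle mouse 1, at 46.8%. Without that library the difference was -4.03 points, and every vehicle ear left lay above every LPC ear. The exact permutation p was then 0.057, the smallest that test can give. Across 16 libraries log2 CPM of Mt1 and Mt2 gave r = 0.98 and rho = 0.96, and each permutation p was 1e-05, the smallest that 100000 permutations can give. Adjusted over the 6 pairs of members, both were 6e-05. With the group means removed the values were r = 0.96 and rho = 0.96 (permutation, adjusted p = 0.00066 and 0.00027), and r was 0.91 without the 2 libraries farthest from the median of Mt1. RSEM shares reads between similar transcripts by a model, so part of the split between the pair rests on that model.

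Mt4 was lower in LPC ears at day 7 than in any library of the other 3 groups. It stood at 1.66, 23.6, 11.4 and 14.1 FPKM there and at 93.7, 85.7, 94.4 and 314 FPKM in vehicle ears at day 7. The groups did not overlap, with means of 12.7 ± 9.04 and 147 ± 111 FPKM (SD, n = 4 each). The log2 fold change was -3.44 ± 0.73, or 10.8-fold lower in LPC ears, and this is the value that singled the gene out. Over all genes, 3.83% were called at day 7 and 6.9% were lower in every LPC ear, and nothing is read from these shares here. Leaving out each library in turn gave log2 fold changes between -3.89 and -2.81. With LPC mice 2 and 4 left out it was -4.27, and with the muscle score as a covariate it was -3.44. In bulk skin, fewer cells of a type and less RNA per cell cannot be told apart.

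At day 4, outside the comparison that singled it out, Mt4 did not differ between treatments beyond the spread of mice. It stood at 115, 306, 372 and 115 FPKM in LPC ears, against 289, 240, 470 and 58.8 FPKM in vehicle ears. The groups overlapped, with means of 227 ± 132 and 264 ± 169 FPKM. Mt4 had a log2 fold change of -0.19 ± 0.65 there (edgeR adjusted p = 0.90), and it turned to 0.16, 0.02 or 0.02 without vehicle mouse 3, LPC mouse 1 or LPC mouse 4. Between the days, Mt4 in LPC ears was lower at day 7 in all 4 libraries than in any at day 4, with a log2 change of -4.07 ± 0.75, or 16.8-fold lower; 13.0% of all genes were likewise lower in every library, and nothing is read from that share. In vehicle ears the change of day 7 against day 4 was -0.83 ± 0.66, with overlapping groups. The effect of LPC at day 7 minus that at day 4 was -3.24 ± 0.96. These last 3 values include the day 7 libraries and carry no test.

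**Figure D3:**
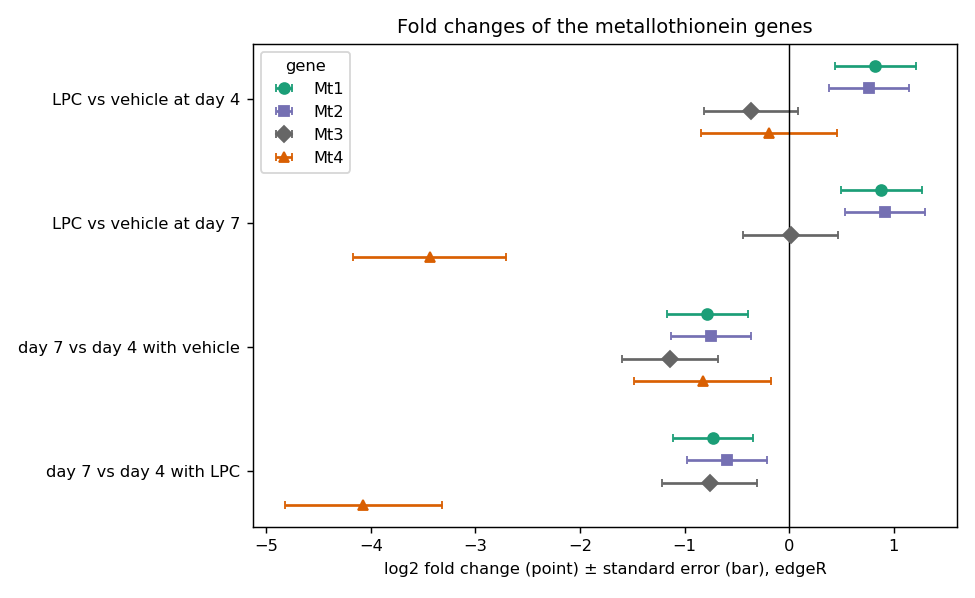
Log2 fold changes (points) with standard errors (bars) of the 4 genes in 4 comparisons, from edgeR. Mt4 lies at -3.44 for LPC against vehicle at day 7 and at -4.07 for day 7 against day 4 with LPC, while Mt1 and Mt2 lie between -0.78 and 0.92 throughout.

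Within groups, Mt4 ran opposite to Mt2. By FPKM, in all 4 groups the mouse with the most Mt2 had the least Mt4, and the mouse with the least Mt2 had the most Mt4. In LPC ears at day 4 the first of these rested on a near tie of mice 4 and 1. Their Mt4 stood at 115.34 and 115.39 FPKM and their Mt2 at 3317 and 3297 FPKM. With the group means removed, log2 CPM of Mt2 and Mt4 gave r = -0.79 and rho = -0.89 over 16 libraries (permutation, p = 0.00092 and 9e-05; adjusted over 6 pairs, 0.0028 and 0.00027). Without the 2 libraries farthest from the median of Mt2, r was -0.76. Mt1 and Mt4 gave r = -0.69 and rho = -0.81 (permutation, adjusted p = 0.026 and 0.0024), and r was -0.57 without the 2 farthest libraries. Without removal of group means r was -0.20 for Mt2 and Mt4 and -0.14 for Mt1 and Mt4. These values hold the day 7 difference that singled Mt4 out. They are given with no test, and nothing is read from them. Tissue makeup varied between the libraries of a group, as given above, and its part in this relation was not tested. How many other genes ran opposite to Mt2 within groups was not counted. The relation is therefore not shown to be particular to Mt4.

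**Figure D4:**
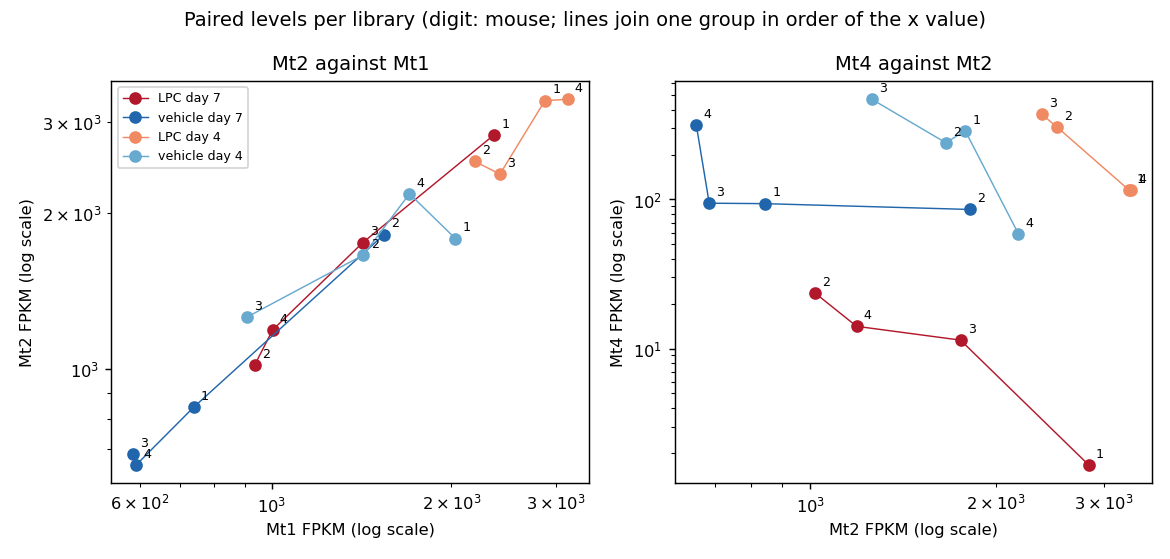
Mt2 against Mt1 (left) and Mt4 against Mt2 (right), FPKM on log axes, with 1 point per library, the digit as the mouse and a line joining the libraries of a group in order of the x value. Mt1 and Mt2 lie along 1 diagonal, and in each of the 4 groups the library with the most Mt2 has the least Mt4. In LPC ears at day 4 this rests on a near tie of mice 4 and 1.

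Because Mt4 is a gene of differentiating epidermis, its level was set against that of 20 other genes of terminal differentiation. At day 7, 8 of the 20 fell with LPC and none rose, with a median log2 fold change of -1.07 beside 0.02 over all genes; of all genes, 1.44% fell. Krt10 averaged 740 ± 454 FPKM in LPC ears and 3685 ± 396 FPKM in vehicle ears, a log2 fold change of -2.24 ± 0.42 (edgeR adjusted p = 0.015). Lor, the cornified envelope protein loricrin, averaged 443 ± 192 FPKM in LPC ears and 2295 ± 1665 FPKM in vehicle ears, a log2 fold change of -2.26 ± 0.55 (edgeR adjusted p = 0.037). Hrnr, which encodes hornerin, and Dsg1a, a desmosomal cadherin, fell by 2.14 and 1.34 on the log2 scale (edgeR adjusted p = 0.018 and 0.029). At day 4 none of the 20 was called by edgeR or DESeq2, and none had an unadjusted p below 0.05. Day 7 against day 4 with LPC, 4 of the 20 and 4.13% of all genes fell. By sign, 14 of the 20 were lower and 6 higher. The median log2 change was -0.55 beside 0.03 over all genes. An unadjusted p below 0.05 was found for 14, and DESeq2 called 7. Krt2, a keratin of the upper epidermis, had the smallest p, with a log2 change of -5.03 ± 1.10 (edgeR adjusted p = 0.015). In vehicle ears 15 of the 20 were higher at day 7 than at day 4 and 5 were lower. Their median log2 change was 0.48. There edgeR called 0, with 9 at an unadjusted p below 0.05 and 3 called by DESeq2. Mt4 changed by -0.83 ± 0.66 in the same comparison, given with no test. Fitting the 2 day 7 groups alone left 0 of the 8 calls at day 7.

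The level of Mt4 relative to these genes is given as a description only, since it uses the day 7 values that singled the gene out. The summed level of the 20 was 7433 to 10193 FPKM in LPC ears and 19742 to 25566 FPKM in vehicle ears at day 7. Per 1000 FPKM of that sum, Mt4 made up 0.223, 2.32, 1.24 and 1.81 FPKM in LPC ears, against 4.75, 4.20, 4.18 and 12.3 FPKM in vehicle ears, and the groups did not overlap. At day 4 the same ratio ran from 7.40 to 17.7 in LPC ears and from 5.88 to 25.8 in vehicle ears. Per 1000 FPKM of Krt10 alone, Mt4 stood at 4.53 to 29.0 FPKM in LPC ears and at 24.2 to 77.4 FPKM in vehicle ears at day 7, and these groups overlapped. Between the days with LPC, Krt2 had the larger log2 change, -5.03 beside -4.07 for Mt4.

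**Figure D5:**
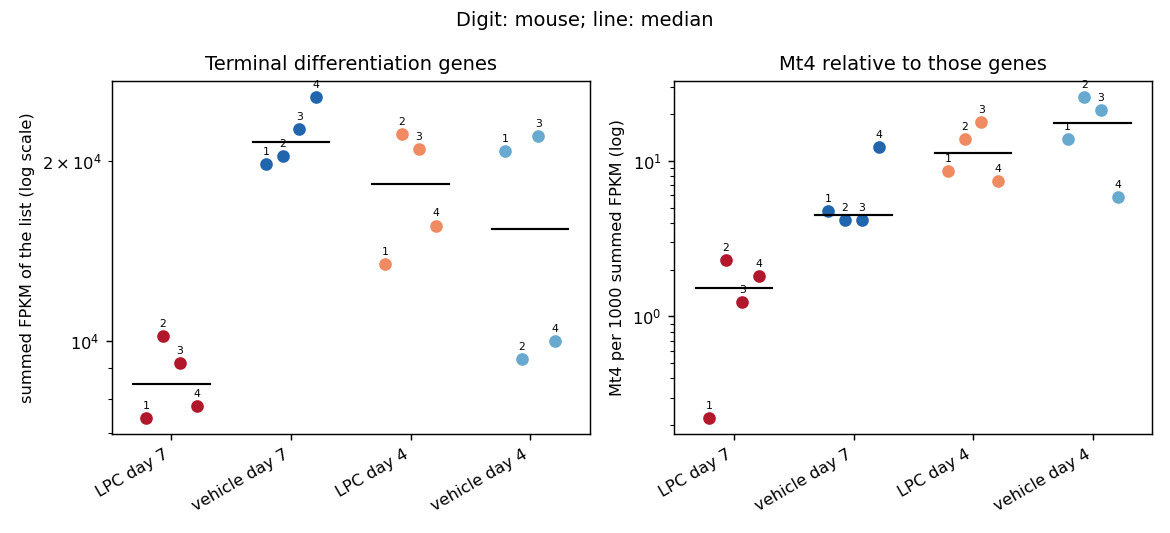
Summed FPKM of 20 terminal differentiation genes (left) and Mt4 FPKM per 1000 FPKM of that sum (right), on log axes, with 1 point per library, the digit as the mouse and a line at the group median. At day 7 both quantities are lower in every LPC ear than in any vehicle ear, the ratio standing at 0.223 to 2.32 in LPC ears and at 4.18 to 12.3 in vehicle ears.

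The genes whose log2 CPM ran most like Mt4 over the 16 libraries, among 13846 genes, were 2310007B03Rik (r = 0.95), Cgn (0.95), Elmod1 (0.95), Lce1b (0.95) and Fcho1 (0.94). Cgn encodes cingulin, a tight junction protein, and Lce1b belongs to the late cornified envelope family. Lce1b averaged 43.7 FPKM in LPC ears and 296 FPKM in vehicle ears at day 7, and 326 FPKM in LPC ears and 423 FPKM in vehicle ears at day 4. The genes most like Mt1, after Mt2, were Ccr7 (0.97), Sgsm3 (0.90), Wdr92 (0.90) and Sdc4 (0.89). Ccr7 is the chemokine receptor that guides dendritic cells and T cells to lymph nodes, and Sdc4 is a cell surface heparan sulfate proteoglycan. The genes most like Mt2, after Mt1, were those same 4, with r between 0.89 for Sgsm3 and 0.95 for Ccr7. All these values rest on the same 16 libraries, share their depth and groups, and are given as a description.

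Mt3, the brain member, was the least abundant of the 4 by median, at rank 4480 to rank 11388 within a library. It stood at 2.75, 7.94, 1.92 and 5.34 FPKM in LPC ears and at 3.17, 5.95, 2.71 and 7.25 FPKM in vehicle ears at day 7. At day 4 it stood at 8.34, 8.48, 6.72 and 9.10 FPKM in LPC ears and at 18.9, 5.84, 6.69 and 10.7 FPKM in vehicle ears. The groups overlapped on both days. The log2 fold change with LPC was 0.01 ± 0.46 at day 7, given with no test, and -0.36 ± 0.45 at day 4 (edgeR, adjusted p = 0.69). At day 4 it turned to 0.14 without vehicle mouse 1, and to 0.62 when the muscle score entered the model. Day 7 against day 4, the log2 change was -0.76 ± 0.46 in LPC ears (edgeR, adjusted p = 0.27) and -1.14 ± 0.46 in vehicle ears (edgeR adjusted p = 0.31). Mt3 followed neither Mt1 nor Mt2 past the threshold. With the group means removed it did not follow Mt4 past it either (r = 0.20; permutation, adjusted p = 0.81). The largest r of Mt3 was 0.49 with Mt4 over all libraries (rho = 0.41, and r = 0.32 without the 2 farthest). That value holds the day 7 difference that singled Mt4 out and is given with no test.

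The genes next to the cluster showed no call. Within 150 kb, 5 other genes were listed, and the 4 that could be tested were Nudt21, Ogfod1, Bbs2 and Nup93. edgeR called none of them in any of the 4 comparisons, and the smallest adjusted p was 0.054, for Bbs2 in LPC ears between the days, with a log2 change of -0.77 ± 0.24. Slc12a3 was too low to test.

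Calls among genes of zinc and copper handling are read beside the share of all genes called. The zinc list held MTF1 and the zinc transporters, 25 genes of which 20 could be tested. At day 4 edgeR called 0 of the 20, with 4 at an unadjusted p below 0.05 and 1 called by DESeq2. At day 7 only Slc39a14, a zinc and iron importer, rose with LPC, to 40.1 ± 8.41 FPKM in LPC ears against 20.0 ± 8.20 FPKM in vehicle ears, a log2 fold change of 1.15 ± 0.30 (edgeR adjusted p = 0.046). It was 1 call of 20, beside 3.83% over all genes, and the call was lost in 8 of 18 alternatives. Day 7 against day 4 with LPC, Slc39a1 rose by 0.55 ± 0.14 and Slc39a2 changed by -1.23 ± 0.28 on the log2 scale (edgeR adjusted p = 0.028 and 0.016); both import zinc. These were 2 calls of 20, beside 11.0% over all genes, and fewer than 2 were left in 8 of 18 alternatives. With vehicle edgeR called 0 of 20 between the days, with 2 at an unadjusted p below 0.05 and 0 by DESeq2.

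Of the zinc list, 2 genes were looked at for their roles rather than by the naming rule. Mtf1 itself ran from 3.36 to 4.36 FPKM in LPC ears and from 3.41 to 4.13 FPKM in vehicle ears at day 7, with a log2 fold change of 0.13 ± 0.14 (edgeR adjusted p = 0.68). At day 4 Mtf1 differed by 0.19 ± 0.14 on the log2 scale (edgeR adjusted p = 0.49). Slc30a1, a zinc exporter that MTF1 also controls, averaged 8.58 ± 1.68 FPKM in LPC ears and 13.6 ± 0.704 FPKM in vehicle ears at day 7. Its groups did not overlap, as for the 6.9% of all genes that were lower in every LPC ear. Its log2 fold change of -0.58 ± 0.22 did not pass the test (edgeR adjusted p = 0.16). At day 4 the groups of Slc30a1 overlapped, with a log2 fold change of -0.21 ± 0.22 (edgeR adjusted p = 0.63). The part of zinc or MTF1 in the Mt1 and Mt2 levels was not tested.

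Of 13 copper handling genes, 1 was called, and only between the days with LPC, where 11.0% of all genes were. Cox17, the copper chaperone of cytochrome oxidase, rose in LPC ears at day 7 against day 4 by 0.60 ± 0.15 on the log2 scale (edgeR adjusted p = 0.025), and the list had no call in 6 of 18 alternatives. For LPC against vehicle edgeR called 0 of the 13 on either day; at day 7 DESeq2 called 1 and 2 had an unadjusted p below 0.05, and at day 4 these numbers were 0 and 1. Of 12 genes that respond to glucocorticoids, Dusp1, a phosphatase that acts on MAP kinases, was the only call at day 7, at 269 ± 137 FPKM in LPC ears and 60.9 ± 15.0 FPKM in vehicle ears, a log2 fold change of 2.30 ± 0.35 (edgeR adjusted p = 0.010). This was 1 call of 12, beside 3.83% over all genes, and DESeq2 called 6 of the 12 there. By sign, 7 of the 12 were higher and 5 lower with LPC at day 7. Their summed level there was 1179 to 2525 FPKM in LPC ears and 703 to 965 FPKM in vehicle ears, without overlap. Of these sums, Lcn2 alone averaged 645 and 190 FPKM (edgeR adjusted p = 0.052). At day 4 edgeR called 0 of the 12, with 4 at an unadjusted p below 0.05 and 3 called by DESeq2. There 6 were higher and 6 lower. The 4 with the smallest p, none of them called, went both ways. Errfi1, Dusp1 and Nfkbia were higher, by 1.04, 1.24 and 1.34 on the log2 scale, and Tsc22d3 changed by -1.14. Between the days in vehicle ears 11 of the 12 were lower at day 7. The sums there did not overlap, at 703 to 965 FPKM at day 7 and 985 to 1205 FPKM at day 4. For that comparison edgeR and DESeq2 called 0, and 2 had an unadjusted p below 0.05. In LPC ears 8 were lower at day 7 and 4 higher, with overlapping sums, and edgeR called 0 and DESeq2 1. The part of glucocorticoids in the Mt1 and Mt2 levels was not tested.

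The other lists of cell types moved as follows. Of 12 genes of basal keratinocytes edgeR called 0 for LPC against vehicle on either day, with 4 at an unadjusted p below 0.05 at day 7 and 5 at day 4, and DESeq2 called 1 on each day. Of 10 macrophage genes 1 rose with LPC at day 7, where 2.38% of all genes did, with 3 at an unadjusted p below 0.05 and 2 called by DESeq2; edgeR called 0 at day 4, with 1 at an unadjusted p below 0.05 and 0 by DESeq2. Of 13 hair follicle genes edgeR and DESeq2 called 0 on either day, and none had an unadjusted p below 0.05. Of the 13 adipocyte genes edgeR called 0 on either day; 12 were lower in LPC ears at day 4 and 13 higher at day 7, with 5 and 1 at an unadjusted p below 0.05 and 3 and 0 called by DESeq2. Their summed level at day 4 was 176 to 556 FPKM in LPC ears and 493 to 1885 FPKM in vehicle ears.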

How the data were processed

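RNA-seq of 16 mouse ear skin libraries was grouped by sample titles, because the days in file names (3 and 6) differ from those of the titles (4 and 7). Per the labels' protocols, the authors aligned reads to GRCm38 with Bowtie2 and quantified genes with RSEM, and the submitters' processing notes name the same aligner and build. Versions and strand: not given in the sources used here. Deposited tables list RSEM expected counts (estimated counts, which need not be whole) and FPKM values made by the authors. A gene missing from a file was taken as 0.

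Expected counts were rounded, filtered with filterByExpr (15782 genes kept, 3657 removed) and tested with edgeR 4.0.16 (R 4.3.3; TMM factors 0.836 to 1.107, a mean per group, 12 residual degrees of freedom, Benjamini-Hochberg adjustment over all genes, calls below 0.05). The test was checked on simulated data. The biological coefficient of variation was 35%. Log2 CPM used a prior count of 2. No 2 libraries of a group agreed within sampling noise. The labels do not say that each library came from its own mouse; if not, p-values measure only the spread between these samples.

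The members, the 10 gene lists (154 symbols, all matched) and the tests were chosen with earlier results of these data known. Named genes were the members, their neighbours within 150 kb, the 5 genes most like Mt1, Mt2 and Mt4 (average log2 CPM of at least 1) and up to 4 called members per list; exceptions are stated. Start regions came from RefSeq for GRCm38.p6, and all 4 members matched by symbol. Alternatives were DESeq2 1.42.0, limma 3.58.1 on log2(FPKM + 1) and log2(FPKM + 0.1), other size factors and filters, a replicate block, a muscle score, the compared groups alone and each library left out.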

Additional observations from a re-analysis of the deposited data

Results flagged for a closer look

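Among 24 groups of 4 values checked, 3 held a library far from the others, and chance marks about 1 in 20 groups. Mt1 stood at 1542.11 FPKM in vehicle mouse 2 at day 7, while the other 3 vehicle ears lay between 585 and 739 FPKM. Mt2 stood at 1816.98 FPKM in the same ear, with the others between 653 and 843 FPKM. Since Mt1 and Mt2 ran together, these are 2 readings of 1 library. That ear had the lowest muscle and adipocyte sums of its group, 1892 and 195 FPKM; their part in the Mt1 and Mt2 levels was not tested. Mt4 stood at 314.0 FPKM in vehicle mouse 4 at day 7, with the others between 85.7 and 94.4 FPKM. Without that library the log2 fold change of Mt4 with LPC at day 7 was -2.81, and it was -3.44 with all libraries.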

How the results depend on the processing

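Calls over all genes depended strongly on the settings, and no member was called in any tested comparison under any of them. For LPC against vehicle at day 4 (22 genes called) the count was 8 with no low-count filter, 0 with the muscle score as a covariate, 1333 with the compared groups alone, 1104 with DESeq2, 40 with limma on log2(FPKM + 1) and 38 on log2(FPKM + 0.1); leaving out 1 library gave 0 to 683, the highest without vehicle mouse 3. At day 7 (604) it was 1175 with the muscle score, 45 with the compared groups alone, 1448 with DESeq2, 3376 with LPC mice 2 and 4 left out and 111 to 697 without 1 library. Day 7 against day 4 with vehicle (0) gave 238 with DESeq2 and 0 to 205 without 1 library, the highest without vehicle mouse 4 at day 7. With LPC (1736) it gave 895 with the muscle score, 1100 with the compared groups alone, 3073 with DESeq2 and 518 to 2207 without 1 library. The causes were not tested. On log2(FPKM + 0.1) the median over all genes moved to -0.12 at day 7 and between the days with LPC. The calls there were 246 higher and 276 lower at day 7, beside 376 and 228 in edgeR, and 583 higher and 1035 lower between the days, beside 1084 and 652. On log2(FPKM + 1) these splits were 276 and 254, and 576 and 939.

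Same-numbered mice did not deviate together (9 of 24 pairs had r above 0.1, between -0.60 and 0.54, and 2 of 16 libraries matched their own number best). With the replicate block the counts of calls were 2 at day 4, 351 at day 7 and 901 between the days with LPC.

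Mt1 at day 4 ran from 0.43 to 0.89 on the log2 scale over the alternatives (edgeR, DESeq2 and limma adjusted p 0.11 to 0.91) and from 0.61 to 1.04 without 1 library (0.26 to 0.43). Mt2 at day 4 ran from 0.27 to 0.78 (0.073 to 0.95) and from 0.61 to 0.88 without 1 library (0.30 to 0.48). Mt1 at day 7 ran from 0.45 to 1.31 and Mt2 from 0.47 to 1.37 without 1 library. Mt3 at day 4 turned to 0.62 with the muscle score and ran from -0.57 to 0.14 without 1 library (adjusted p 0.52 to 0.91), and Mt3 at day 7 was -0.78 with LPC mice 2 and 4 left out. Its LPC effect at day 7 minus day 4 was -0.59 with the muscle score and -0.41 with LPC mice 2 and 4 left out. Mt4 at day 4 ran from -0.33 to -0.09 over the alternatives (adjusted p 0.82 to 0.97) and from -0.56 to 0.16 without 1 library (0.70 to 0.99). Mt4 at day 7 ran from -4.27 to -3.40, and in LPC ears between the days from -4.95 to -3.98. The share of Mt2 at day 4 differed by -1.71 points on counts (exact permutation p = 0.514) and by -4.03 to -0.25 points without 1 library (exact permutation p 0.057 to 0.97). The option to leave out LPC mice 2 and 4 and all alternatives for the list counts and for the difference between the days were added after the data were seen. Mt4 had as few as 12 counts in a library and Mt3 as few as 19, so relative counting error is largest there.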
